A study of Homo sapiens with 58 samples.

Results

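Lines of basal A breast cancer and lines grown out of non-malignant breast share a basal epithelial identity, and the comparison here asked which transcripts set them apart at baseline. The cancer side holds HCC70, HCC1143, HCC1937, HCC1806, HCC1187, MDAMB468 and BT20, 7 lines that the field classes as basal A and triple-negative. The other side holds 4 immortalised lines, MCF12A, MCF102A, HMT3522T42 and HMT3522S1. The lines were chosen by their names, since the labels assign no class, and they are 11 of the 58 lines of the series. HMT3522T42 was derived from HMT3522S1, so their mean was used as 1 unit, which leaves 7 basal A units and 3 immortalised units. Each line was measured on 1 custom Affymetrix array without treatment, and the deposited values are log2 intensities after robust multi-array averaging (RMA). One unit on this scale is a 2-fold difference in intensity. No line has a repeat array, so every p-value below measures the spread between lines, not between cultures of a line.

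The groups are limited as models. MCF12A and MCF102A are spontaneously immortalised lines from reduction mammoplasty or benign tissue, and HMT3522S1 was established from a benign breast lesion. HMT3522T42 is a tumour-forming derivative of HMT3522S1, and it is therefore also described apart. Per the labels, all lines were grown in the medium their vendor recommends, with no medium named. The usual media of the immortalised lines contain added hydrocortisone and insulin. How the media of the groups differed in serum and other additions is not given. Growth medium and tissue origin cannot be told apart in these samples.

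The mammary duct has an inner layer of luminal cells and an outer layer of basal cells. Luminal cells are joined by tight junctions and express simple keratins and luminal transcription factors. Basal cells rest on the basement membrane and express KRT5, integrins and contractile proteins. Basal-like cancers express basal keratins, but many of their genes are also those of luminal progenitors, the precursor cells of the inner layer. Transcription factors such as ZEB1 repress genes of epithelial junctions during epithelial-mesenchymal transition (EMT), in which cells give up those junctions for a migratory form. Cultured immortalised mammary cells are known to carry part of that program.

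The defining markers were checked first. KRT5, the keratin of basal cells, had a lowest level of 6.04, a median of 12.53 and a highest of 13.49 in the basal A lines, against 13.42 in MCF102A, 13.41 in MCF12A, 12.60 in HMT3522T42 and 13.31 in HMT3522S1. The lowest value is that of HCC1143, and the other basal A lines lay at or above 12.39, so HCC1143 goes against its class by this marker. The difference was -1.39 ± 1.38 (SE; adjusted p = 0.707, limma), and without HCC1143 it was -0.41 (adjusted p = 0.52, limma). MET, the receptor of hepatocyte growth factor, ran from 9.53 in HCC1187 over a median of 11.78 to 12.30 in the basal A lines. It stood at 12.52 in MCF102A, 11.93 in MCF12A, 11.62 in HMT3522T42 and 12.53 in HMT3522S1. The groups overlapped for MET, and the difference was -0.72 ± 0.50 (SE; adjusted p = 0.556, limma). TP63 was not analysed here. PGR, the progesterone receptor, was at 2.35 to 2.87 in the basal A lines and at 2.54 to 2.67 in the immortalised lines, against 11.55 in the luminal line T47D. ERBB2, the HER2 receptor, lay between 9.87 and 12.17 in the basal A lines and between 9.68 and 10.55 in the immortalised lines. These levels were below the 13.70 of AU565, the highest of the lines in neither group. HCC1187, at 12.17, and BT20, at 11.51, were above the ERBB2 median of 11.28 in the 47 lines of neither group. The other lines of both groups were below it. ESR1, the estrogen receptor, lay between 7.32 and 10.64 in the basal A lines and was 9.65 in MCF102A, 6.78 in MCF12A, 4.04 in HMT3522T42 and 4.31 in HMT3522S1. Its highest level in the series was 12.73, in T47D, and its median in the 47 lines of neither group was 5.67. All 7 basal A lines lay above that median, as did MCF102A and MCF12A. The level of ESR1 RNA on these arrays thus goes against the name triple-negative. That name rests on receptor protein, which was not measured here.

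Some markers of other cell types were well above the array median. Of 9 measured blood cell markers 3 passed the filter on low values described below, and 4, PTPRC, CD3E, CD79A and SPI1, were above the array median in none of the units. LAPTM5 ran from 3.29 to 7.68 in the basal A lines and was 3.29 in MCF102A, 10.62 in MCF12A, 8.72 in HMT3522T42 and 5.51 in HMT3522S1. The sum over the 9 ran from 36.4 to 52.8 in the basal A lines and from 41.3 to 49.0 in the immortalised units. Of 10 fibroblast markers 3 passed the filter, COL1A1, COL6A3 and PDGFRA, and 1, COL1A2, was above the array median in none of the units. COL1A1 was at 7.08 to 9.79 in the basal A lines, against 6.77 in MCF102A, 10.76 in MCF12A, 9.18 in HMT3522T42 and 8.996 in HMT3522S1. COL6A3 was highest in HCC1187, at 11.64, and at 6.18 or less in the other basal A lines, against 5.28, 7.09, 8.22 and 8.35 in the same order. No blood or fibroblast marker was called. The sum over the 10 fibroblast markers ran from 38.8 to 62.5 in the basal A lines and from 43.97 to 77.8 in the immortalised units. The part of the fibroblast markers in the mesenchymal differences below was not tested. Array medians ran from 5.44 to 5.53 in the basal A lines and from 5.40 to 5.50 in the immortalised lines. Array quality was judged by how widely each array's values scatter around the gene medians (interquartile range of relative log expression). This width was 0.506 to 0.563 in the basal A lines and 0.461 to 0.520 in the immortalised lines.

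Of 19798 genes with a probe set of their own, 12718 were above the array median in at least 3 of the 10 units and were tested. Of these, 113 passed the threshold (limma, Benjamini-Hochberg adjusted p below 0.05), which is 0.889% of the genes tested. In basal A lines 62 genes were higher, 0.487%, and 51 were lower, 0.401%. The 113 called genes showed no overlap between the units of the groups, as did 6.07% of all genes tested, 3.26% higher and 2.81% lower in basal A. Their median absolute difference was 3.80 log2 units, and the smallest was 0.62. The count moved with single lines. It was 47 without MCF12A, 68 without MDAMB468, 75 without HCC1937 and 215 without HCC1806, and 151 without HCC1143. All 113 genes kept their direction when array quality was added to the fit, but 4 passed the adjusted threshold then (limma), namely KLK5, CCBE1, CUX2 and STAC, of which the last 2 are named because of this count. The width used for array quality was mostly lower in the immortalised lines, so it is partly confounded with group. This fit therefore cannot separate array quality from group.

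**Figure D1:**
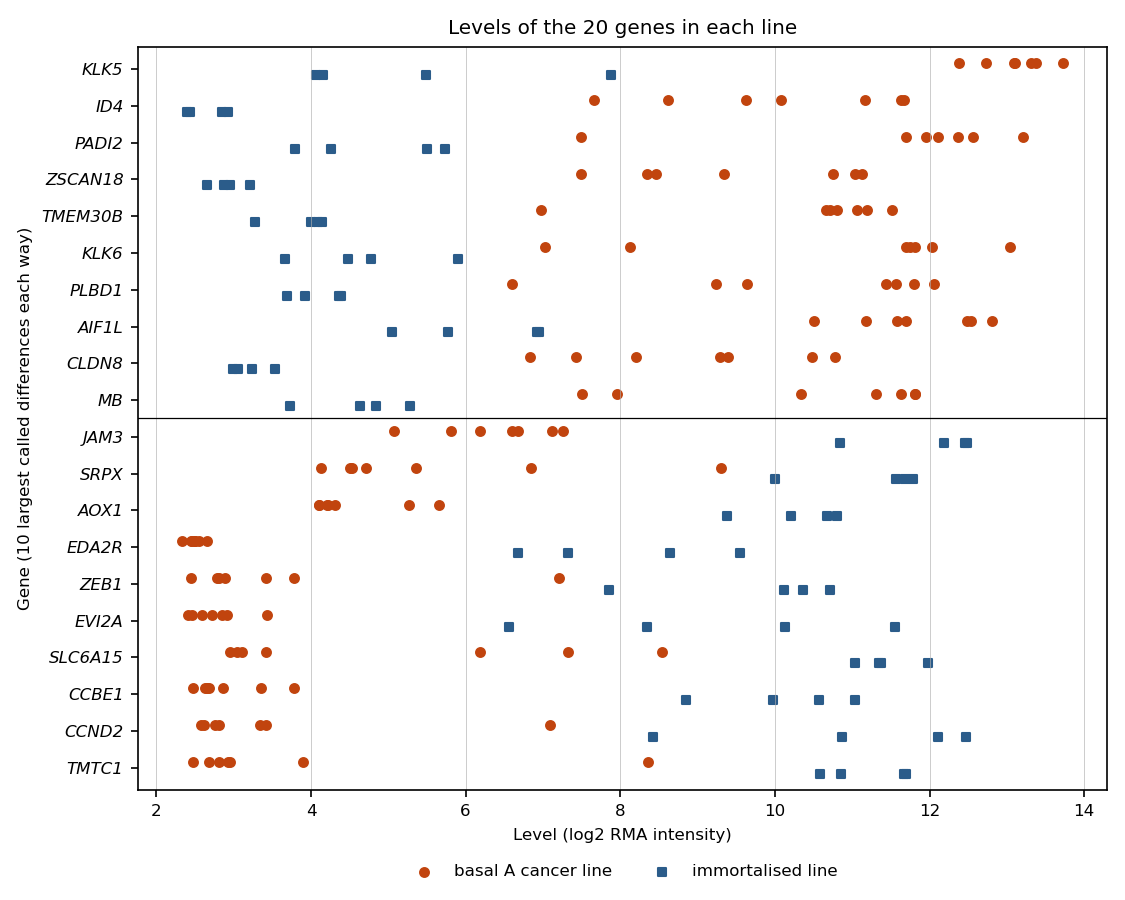
Level of 20 genes on the log2 RMA scale (horizontal axis) in each line, the 10 largest called differences in each direction in rows, with basal A cancer lines as circles above and immortalised lines as squares below in each row. In all 20 genes the lines of the groups do not overlap, and KLK5 stands at 12.38 or more in every basal A line and at 7.88 or less in every immortalised line.

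The gene with the largest difference was KLK5, a secreted serine protease of the kallikrein family that acts in skin shedding. Its level was at least 12.38, with a median of 13.10 and a highest of 13.73, in the basal A lines. It was 5.49 in MCF102A, 4.06 in MCF12A, 4.16 in HMT3522T42 and 7.88 in HMT3522S1. Every basal A line stood above every immortalised line, with a difference of 7.91 ± 0.41 (SE; adjusted p = 2.45e-05, limma). ID4, a helix-loop-helix protein that inhibits DNA binding by its partners, ran from 7.65 over 10.08 to 11.67 in the basal A lines. It was 2.39 in MCF102A, 2.85 in MCF12A, 2.92 in HMT3522T42 and 2.44 in HMT3522S1. These 4 values span a narrow range at the low end of the scale, and the difference was 7.42 ± 0.85 (SE; adjusted p = 0.00372, limma).

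The next genes on that side were of diverse function. PADI2, which converts arginine to citrulline in proteins, was at 7.49, 12.11 and 13.21 (lowest, median and highest) in the basal A lines, against 5.51 in MCF102A, 3.80 in MCF12A, 5.73 in HMT3522T42 and 4.26 in HMT3522S1. ZSCAN18, a zinc finger gene, was at 7.49, 9.34 and 11.12 in the basal A lines and at 2.87, 3.22, 2.65 and 2.95 in the immortalised lines in the same order. TMEM30B, a partner of lipid flippases, was at 6.97, 10.80 and 11.51 in the basal A lines and at 4.09, 3.998, 3.28 and 4.15 in the immortalised lines. In these 3 genes too the lowest basal A line lay above the highest immortalised line. CLDN8, a claudin of tight junctions, differed by 5.69 ± 0.82 (SE; adjusted p = 0.0135, limma) and MB, which encodes the oxygen-binding protein myoglobin, by 5.68 ± 0.999 (SE; adjusted p = 0.0281, limma). PLBD1, a lysosomal phospholipase-like protein, differed by 6.22 and AIF1L, an actin-binding protein, by 5.71. PADI2 and CLDN8 lost the call without MCF12A, with adjusted p of 0.0885 and 0.0677 (limma). PLBD1 lost it without HCC1937, MDAMB468, MCF102A or MCF12A (adjusted p up to 0.105, limma). MB lost it without BT20, HCC1937, HCC70, MDAMB468, MCF102A or MCF12A (adjusted p up to 0.117, limma).

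Among the genes lower in basal A, CCND2, a D-type cyclin that drives cells out of the first gap phase, was at 2.58, 2.82 and 7.09 in the basal A lines (lowest, median and highest). It was 8.43 in MCF102A, 10.87 in MCF12A, 12.48 in HMT3522T42 and 12.11 in HMT3522S1. HCC1937 was the basal A line at 7.09, and the other 6 lay at or below 3.41. The difference was -7.02 ± 1.07 (SE; adjusted p = 0.0168, limma). TMTC1, a mannosyltransferase of the endoplasmic reticulum, was at 2.48, 2.93 and 8.35 in the basal A lines, with HCC1187 highest, and at 10.85, 11.70, 11.66 and 10.59 in MCF102A, MCF12A, HMT3522T42 and HMT3522S1. It gave the largest negative difference, -7.50 ± 1.14 (SE; adjusted p = 0.0168, limma). Both genes lost the call without MCF12A (adjusted p = 0.0855 each, limma).

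CCBE1, a secreted protein needed for lymphatic vessel growth, lay between 2.48 and 3.78 in the basal A lines with a median of 2.68. It was 9.97 in MCF102A, 8.85 in MCF12A, 11.04 in HMT3522T42 and 10.57 in HMT3522S1. The groups were more than 5 units apart, and the difference was -6.96 ± 0.48 (SE; adjusted p = 0.000235, limma). CCBE1 was below the array medians in all basal A lines, so it passed the filter through the immortalised units alone. EVI2A, a membrane protein gene inside an intron of NF1, differed by -6.35 ± 0.84, AOX1, an aldehyde oxidase, by -5.56 ± 0.46, and JAM3, a junctional adhesion molecule, by -5.45 ± 0.53 (SE each). AOX1 ran from 4.10 to 5.65 in the basal A lines and was 9.38 in MCF102A, 10.20 in MCF12A, 10.80 in HMT3522T42 and 10.68 in HMT3522S1. SLC6A15, a transporter of branched-chain amino acids and proline, differed by -6.58, and SRPX, a sushi-repeat protein, by -5.48, both with an adjusted p close to the threshold (0.0452 and 0.0425, limma). SLC6A15 lost the call without BT20, HCC1187, HCC1937, HCC70, MDAMB468, MCF102A or MCF12A, and SRPX without these lines other than HCC1187, with adjusted p up to 0.149 and 0.163 (limma).

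**Figure D2:**
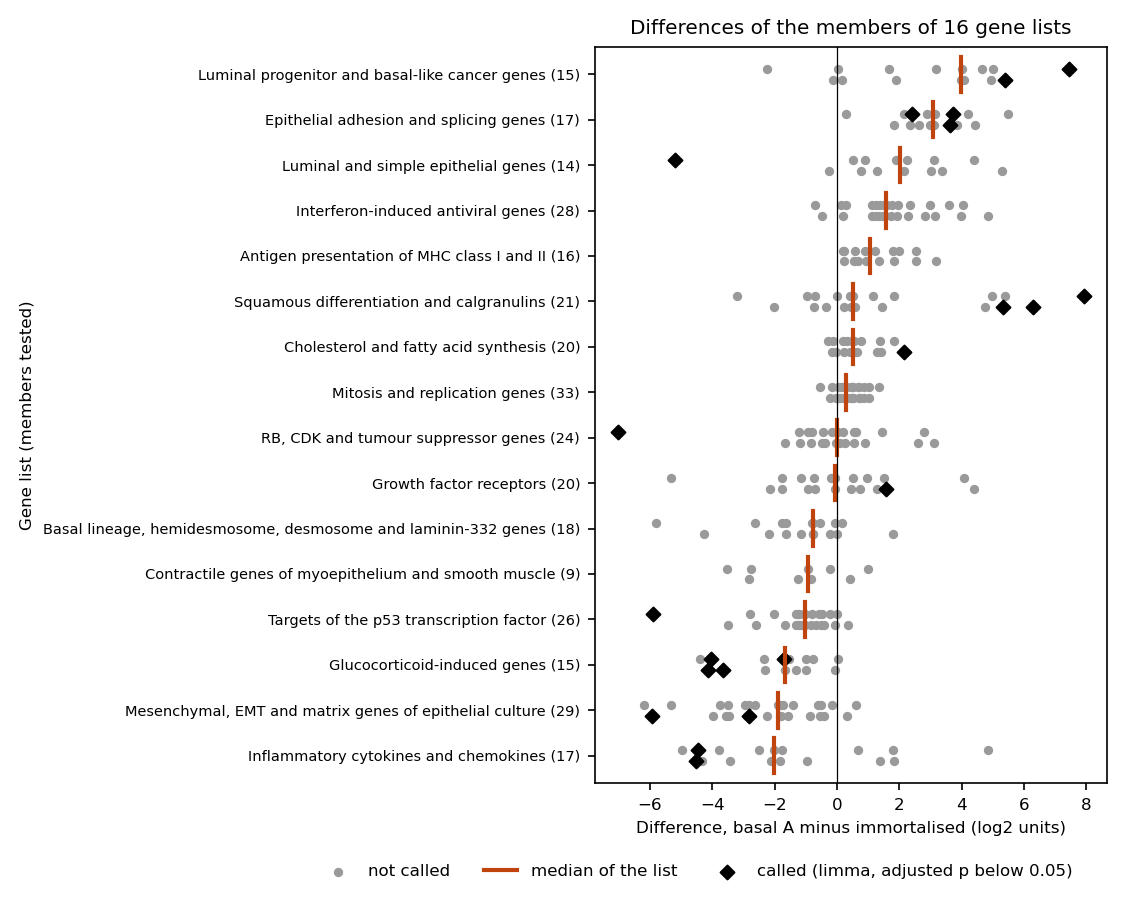
Difference in log2 units, basal A minus immortalised (horizontal axis), of the tested members of 16 gene lists in rows, with called genes as black diamonds, other genes as grey points and the median of each list as a bar. The medians of the luminal progenitor and epithelial adhesion lists are 3.99 and 3.09, those of the cytokine and mesenchymal lists are -2.02 and -1.88, and the median of all genes tested was 0.003.

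Of the genes of epithelial adhesion and splicing, EPCAM, CLDN7 and CRB3 were called higher in basal A. Of 18 members measured 17 passed the filter, all 17 had a positive difference, and their median was 3.09, against 0.003 over all 12718 genes. Members below the filter stay out of this and the following medians, and a gene could pass the filter through 1 group alone. Of all 12718 genes, 6385 had a positive and 6330 a negative difference. In basal A 0.487% of all genes were called higher and 0.401% lower. These shares are the background of this and the following lists, which were chosen with earlier results of these data known. EPCAM, an adhesion molecule of epithelia, was at 12.62, 12.86 and 13.18 in the basal A lines (lowest, median and highest), against 10.58 in MCF102A, 9.34 in MCF12A, 6.61 in HMT3522T42 and 8.75 in HMT3522S1. The basal A lines lay within a range of under 1 unit and all above the immortalised lines, with a difference of 3.74 ± 0.47 (SE; adjusted p = 0.00621, limma). CLDN7, a claudin, was at 10.86, 12.32 and 12.73 in the basal A lines, against 10.42 in MCF102A, 7.54 in MCF12A, 5.65 in HMT3522T42 and 9.61 in HMT3522S1. Its difference was 3.64 ± 0.61 (SE; adjusted p = 0.0244, limma), and the gap between HCC1187 and MCF102A was small. CRB3, a polarity protein of the apical membrane, was at 6.74, 7.64 and 8.24 in the basal A lines, against 5.73, 4.90, 4.38 and 5.15 in the immortalised lines in the same order. Its difference was 2.41 ± 0.39 (SE; adjusted p = 0.022, limma). CLDN7 lost the call without HCC1937, MDAMB468 or MCF12A (adjusted p up to 0.117, limma), and CRB3 without MCF12A (adjusted p = 0.109, limma).

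The immortalised lines were not alike in these genes. The mean level over the 17 members lay between 10.10 and 11.001 in the basal A lines, against 9.66 in MCF102A, 6.89 in MCF12A, 5.18 in HMT3522T42 and 6.39 in HMT3522S1. MCF102A stood close to the basal A lines. Without it 12 of the 17 members were called higher in basal A, as were 83 of all 12718 genes (limma). That fit is named here because of the levels of MCF102A, so its count is no separate support. CDH1, which encodes E-cadherin, and RAB25, a regulator of vesicle traffic, were chosen after their values were seen. They are examples of a level in MCF102A close to that of the basal A lines. CDH1 was at 11.83, 12.09 and 13.05 in the basal A lines and at 12.91 in MCF102A, but at 9.45 in MCF12A, 5.14 in HMT3522T42 and 8.67 in HMT3522S1. RAB25 was at 11.31, 12.53 and 12.87 in the basal A lines and at 11.51 in MCF102A, and at 4.53, 4.03 and 4.73 in the other immortalised lines. Neither passed the test over all units (adjusted p = 0.259 and 0.0853, limma).

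Promoters of 3 called epithelial genes are shown because ZEB1, described next, is known to bind the E-box CAGGTG. Each sequence is the 300 bases around the annotated start of the gene in RefSeq (GRCh38.p14), 5′ to 3′ on the gene's strand, with matches to CAGGTG or its reverse complement CACCTG in capitals. CRB3 lies at chr19:6464021-6464320 on the plus strand and held 5 matches. ELF3, an epithelial transcription factor described below, lies at chr1:202010337-202010636 on the plus strand and held 1. CLDN7 lies at chr17:7263164-7263463 on the minus strand and held 0.
CRB3: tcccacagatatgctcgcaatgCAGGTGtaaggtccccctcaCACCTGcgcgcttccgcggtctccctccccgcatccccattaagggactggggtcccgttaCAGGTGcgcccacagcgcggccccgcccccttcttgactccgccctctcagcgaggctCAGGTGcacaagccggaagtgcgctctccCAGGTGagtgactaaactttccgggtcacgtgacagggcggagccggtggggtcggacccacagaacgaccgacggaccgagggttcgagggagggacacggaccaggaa
ELF3: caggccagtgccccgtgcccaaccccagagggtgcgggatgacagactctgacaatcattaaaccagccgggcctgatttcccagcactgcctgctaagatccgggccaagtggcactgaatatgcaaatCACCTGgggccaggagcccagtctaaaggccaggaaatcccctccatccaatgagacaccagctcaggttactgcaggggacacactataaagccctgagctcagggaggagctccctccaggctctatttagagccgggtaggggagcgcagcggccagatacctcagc
CLDN7: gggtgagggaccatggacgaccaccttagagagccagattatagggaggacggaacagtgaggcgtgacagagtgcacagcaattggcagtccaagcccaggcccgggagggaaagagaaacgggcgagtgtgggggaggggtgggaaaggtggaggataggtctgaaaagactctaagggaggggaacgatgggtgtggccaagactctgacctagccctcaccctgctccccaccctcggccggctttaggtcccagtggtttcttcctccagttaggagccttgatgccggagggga
Such a match was found in 20.6% of all 27305 promoters of the table, and in 18.8% of the 10355 that belong to genes tested. Of the called genes with a promoter in the table, 18 of 47 higher in basal A had a match, 38.3%, and 9 of 38 lower in basal A, 23.7%. These shares describe the letters in a fixed window only.

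Of the mesenchymal and matrix genes, ZEB1 and COL7A1 were called lower in basal A. Of 30 members measured 29 were tested, 27 of them had a negative difference, and the median was -1.88 against 0.003 over all genes. ZEB1, a repressor of epithelial genes, was at 2.44, 2.89 and 7.21 in the basal A lines (lowest, median and highest), against 7.86 in MCF102A, 10.37 in MCF12A, 10.71 in HMT3522T42 and 10.12 in HMT3522S1. The highest basal A line was HCC1143, and the other 6 lay at or below 3.79. The difference was -5.93 ± 1.01 (SE; adjusted p = 0.0244, limma), and the call was lost without HCC1937, MDAMB468 or MCF12A (adjusted p up to 0.122, limma). COL7A1, the collagen of anchoring fibrils under stratified epithelium, was at 4.42, 4.97 and 6.42 in the basal A lines, against 8.25 in MCF102A, 8.03 in MCF12A, 6.96 in HMT3522T42 and 7.93 in HMT3522S1. Its difference was -2.82 ± 0.45 (SE; adjusted p = 0.0198, limma), and the call was lost without MCF102A or MCF12A (adjusted p up to 0.101, limma). With MCF12A left out no member of the list was called.

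The basal A lines differed more among themselves in these genes than the immortalised lines did. This was not particular to these genes, since over all genes tested most pairs of basal A lines were also less alike (correlations below). The mean level over the 29 members lay between 6.82 and 9.72 in the basal A lines, highest in HCC1143, against 9.66 in MCF102A, 10.17 in MCF12A, 10.23 in HMT3522T42 and 9.98 in HMT3522S1. VIM, the intermediate filament vimentin of mesenchymal cells, chosen after its values were seen, was at 8.06, 10.11 and 13.55 in the basal A lines and between 13.06 and 13.39 in the immortalised lines. The groups overlapped, since HCC1143 had the highest level, and VIM did not pass the test (adjusted p = 0.328, limma). AXL, a receptor kinase often high in mesenchymal-like cancer cells, was at 2.75, 4.52 and 12.94 in the basal A lines, against 11.32, 12.24, 11.27 and 12.69 in MCF102A, MCF12A, HMT3522T42 and HMT3522S1. Again HCC1143 was the highest basal A line, and the difference of -5.32 ± 2.29 was not called (SE; adjusted p = 0.337, limma).

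**Figure D3:**
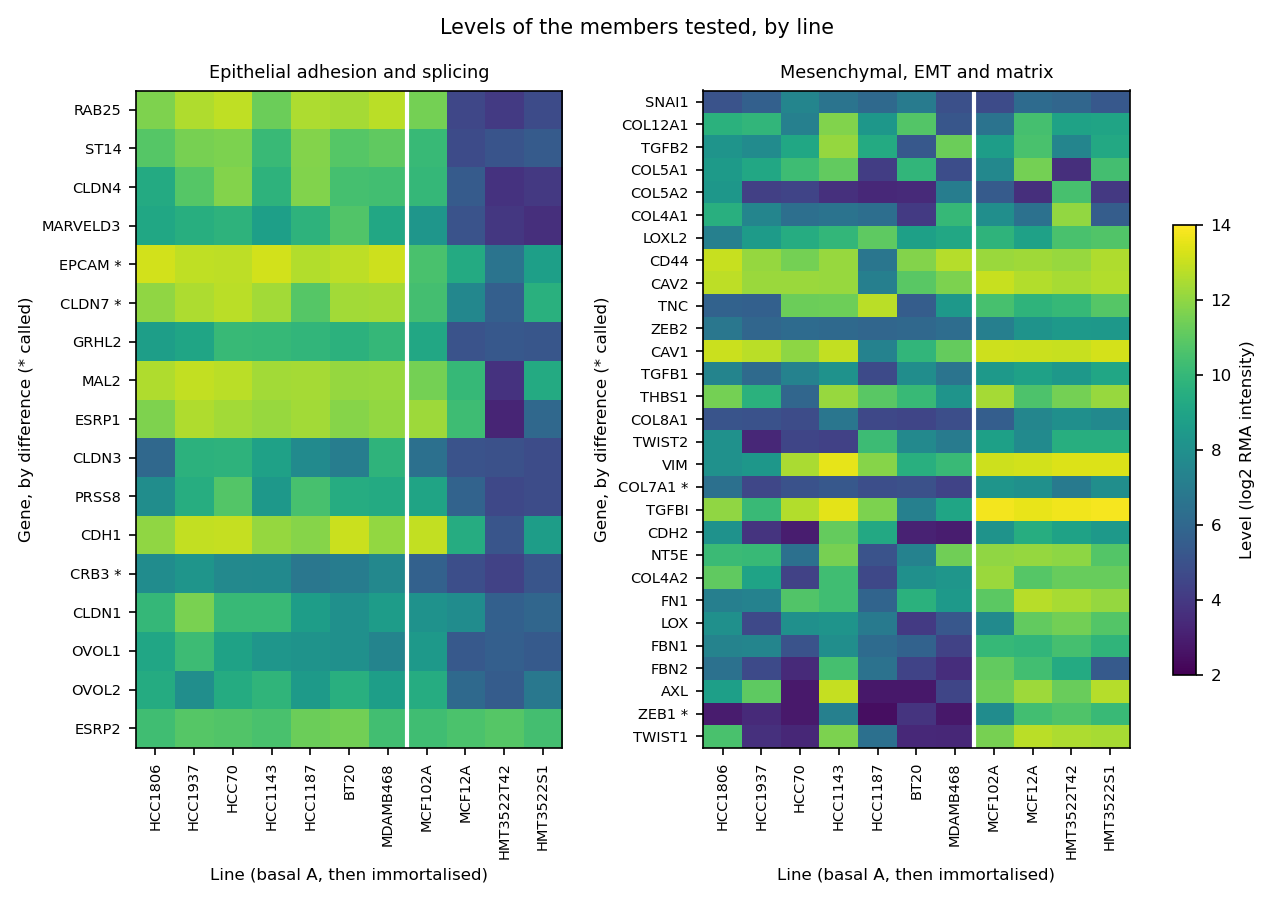
Levels on the log2 RMA scale, shown by colour, of the tested members of the epithelial adhesion list (left, 17 genes) and the mesenchymal list (right, 29 genes) in rows, with the 7 basal A lines left of the white line and the 4 immortalised lines right of it, and called genes marked by an asterisk. MCF102A resembles the basal A lines in most epithelial genes (mean level 9.66 against 6.89 or less in the other immortalised lines), and HCC1143 has the highest mesenchymal mean of the basal A lines, 9.72.

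Of the genes of luminal progenitors and of basal-like cancer, ID4 and ELF3 were called higher in basal A. The median difference was 3.99 over 15 members tested of 18 measured, of which 13 were positive. With no filter on low values it was 2.53 over all 18. Genes known from basal-like cancer are part of this list by design, so its median is a description and no separate support. ELF3, a transcription factor of simple epithelia, was at 7.61, 11.35 and 12.24 in the basal A lines, against 7.03 in MCF102A, 4.88 in MCF12A, 4.61 in HMT3522T42 and 5.03 in HMT3522S1. HCC1806 stood at the low end, close to MCF102A, and the difference was 5.39 ± 0.91 (SE; adjusted p = 0.0244, limma). The call was lost without HCC1937, MDAMB468 or MCF12A (adjusted p up to 0.117, limma). KIT, the stem cell factor receptor and a marker of luminal progenitors, was above 11 in HCC70 and HCC1187 and as low as 3.58 in BT20, against 3.63, 3.96, 4.09 and 4.64 in MCF102A, MCF12A, HMT3522T42 and HMT3522S1. The groups overlapped, and its difference of 4.07 was not called (adjusted p = 0.334, limma).

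Luminal genes had a median difference of 2.02 over 14 members tested of 18 measured, 12 of them positive, yet the 1 member that passed the test was lower in basal A. This was CA12, a membrane carbonic anhydrase that is induced by estrogen and by hypoxia. It was at 3.34, 4.75 and 7.48 in the basal A lines, against 10.71 in MCF102A, 10.14 in MCF12A, 10.58 in HMT3522T42 and 10.32 in HMT3522S1. The difference was -5.20 ± 0.81 (SE; adjusted p = 0.0183, limma), and it lost the call without MCF102A or MCF12A (adjusted p up to 0.0762, limma). KRT23, a keratin, had the largest positive difference of the list, 5.28 ± 1.73 (SE), and was not called (adjusted p = 0.205, limma). It ranged from 5.34 to 12.96 in the basal A lines and from 3.43 to 4.42 in the immortalised lines.

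Genes of the basal lineage, hemidesmosomes and desmosomes gave no call among 18 tested, with a median difference of -0.78 and 16 negative members. BNC1, a zinc finger protein of basal keratinocytes, was at 9.67 in HCC1806 and 6.64 in HCC70 and at 3.50 or less in the other basal A lines, against 10.87 in MCF102A, 9.45 in MCF12A, 9.98 in HMT3522T42 and 10.54 in HMT3522S1. SNAI2, a repressor that marks mammary basal cells, ran from 2.16 to 10.94 in the basal A lines and from 10.94 to 11.97 in the immortalised lines. Neither passed the test (adjusted p = 0.107 and 0.333, limma). KRT15 was the other member tested, besides KRT5, of the list of keratins of basal and stratified epithelium. It was at 7.92, 9.45 and 13.13 in the basal A lines and between 7.75 and 9.51 in the immortalised lines. KRT15 was not called (adjusted p = 0.606, limma). Contractile genes of myoepithelium, the differentiated basal cell, had a median of -0.92 over 9 tested with none called.

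In the list of squamous differentiation the 3 called members were kallikreins, a family of secreted serine proteases encoded side by side on chromosome 19. KLK5 is given above. KLK6 was at 7.02, 11.74 and 13.04 in the basal A lines, against 4.47 in MCF102A, 3.66 in MCF12A, 4.78 in HMT3522T42 and 5.90 in HMT3522S1. KLK8 was at 8.55, 9.95 and 12.05 in the basal A lines, against 5.06, 4.49, 4.32 and 5.28 in the immortalised lines in the same order. Both genes were higher in every basal A line than in any immortalised line. KLK8 differed by 5.33 ± 0.71 (SE; adjusted p = 0.00847, limma) and KLK6 by 6.29 ± 1.23 (SE; adjusted p = 0.0483, limma). KLK6 lost the call in 8 of the 11 fits that leave out 1 line, all but those without HCC1806, HCC70 or HMT3522S1, with adjusted p up to 0.177 (limma). The 21 members tested of 27 measured had a median difference of 0.52, and the other 18 were not called.

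Genes induced by glucocorticoids, the steroid hormones to which hydrocortisone belongs, gave 4 calls, all lower in basal A. Of 16 measured 15 were tested, 14 of them had a negative difference, and the median was -1.66. Over all 12718 genes 0.401% were called lower and 6330 had a negative difference. ZBTB16, a transcriptional repressor, lay between 4.71 and 5.43 in the basal A lines with a median of 5.12. It was 7.83 in MCF102A, 8.95 in MCF12A, 9.62 in HMT3522T42 and 9.25 in HMT3522S1. The basal A lines were within 1 unit of each other and all below the immortalised lines, with a difference of -3.65 ± 0.37 (SE; adjusted p = 0.00162, limma). All basal A levels of ZBTB16 were below the array medians, and it passed the filter through the immortalised units alone. DUSP1, a phosphatase of MAP kinases, was at 7.06, 8.24 and 9.12 in the basal A lines, against 12.06 in MCF102A, 12.21 in MCF12A, 12.67 in HMT3522T42 and 12.05 in HMT3522S1. Its difference was -4.03 ± 0.51 (SE; adjusted p = 0.00668, limma), and it kept the call with each line left out in turn, as did ZBTB16.

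The other called members were ANGPTL4 and FKBP5. ANGPTL4, a secreted inhibitor of lipoprotein lipase, was at 5.42, 6.89 and 8.45 in the basal A lines, against 10.31, 9.93, 12.43 and 11.74 in MCF102A, MCF12A, HMT3522T42 and HMT3522S1, a difference of -4.14 ± 0.70 (SE; adjusted p = 0.0244, limma). FKBP5, a co-chaperone of the glucocorticoid receptor, was high in all lines, at 10.65, 11.54 and 12.34 in the basal A lines and at 12.91, 13.40, 13.45 and 13.10 in the immortalised lines in the same order. It differed by -1.71 ± 0.30 (SE; adjusted p = 0.0281, limma). ANGPTL4 lost the call without HCC1937, MDAMB468, MCF102A or MCF12A, and FKBP5 without these or BT20, with adjusted p up to 0.0672 and 0.135 (limma). The mean level over the 15 members lay between 8.60 and 9.56 in the basal A lines, against 10.91 in MCF102A, 11.51 in MCF12A, 11.09 in HMT3522T42 and 11.15 in HMT3522S1, with no overlap. Genes induced by cyclic AMP had a median difference of 0.59 over 12 tested with none called. The share of growth medium in these values was not tested.

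Targets of the p53 transcription factor, a tumour suppressor that is often mutated in basal-like cancer, had a median difference of -1.04 over 26 tested. The difference was negative in 24 of them and 1 passed the test. This was EDA2R, a receptor of the tumour necrosis factor family, which lay between 2.34 and 2.66 in the basal A lines with a median of 2.50. It was 8.65 in MCF102A, 9.55 in MCF12A, 6.67 in HMT3522T42 and 7.32 in HMT3522S1. The basal A lines formed a tight set far below all 4 immortalised lines, with a difference of -5.91 ± 0.52 (SE; adjusted p = 0.00108, limma). The set lay at the low end of the scale, below the array medians. EDA2R thus passed the filter through the immortalised units alone. The call was kept with each line left out in turn.

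Within the immortalised group the MCF lines stood above the HMT3522 lines in p53 targets. The mean level over the 26 members was 7.65 to 8.72 in the basal A lines, against 9.79 in MCF102A, 10.35 in MCF12A, 8.57 in HMT3522T42 and 8.81 in HMT3522S1. HMT3522T42 lay within the basal A range and HMT3522S1 just above it. SPATA18, a mitochondrial quality control gene, was at 3.41, 3.89 and 6.20 in the basal A lines and at 9.15 in MCF102A and 9.13 in MCF12A, but at 4.42 in HMT3522T42 and 5.73 in HMT3522S1. It was not called over all units (adjusted p = 0.121, limma). CDKN1A, the inhibitor p21, chosen after its values were seen, was at 8.54, 10.32 and 11.21 in the basal A lines and at 11.81, 12.66, 10.03 and 8.90 in MCF102A, MCF12A, HMT3522T42 and HMT3522S1 (adjusted p = 0.56, limma). The MCF lines were above all basal A lines and the HMT3522 lines were among them.

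**Figure D4:**
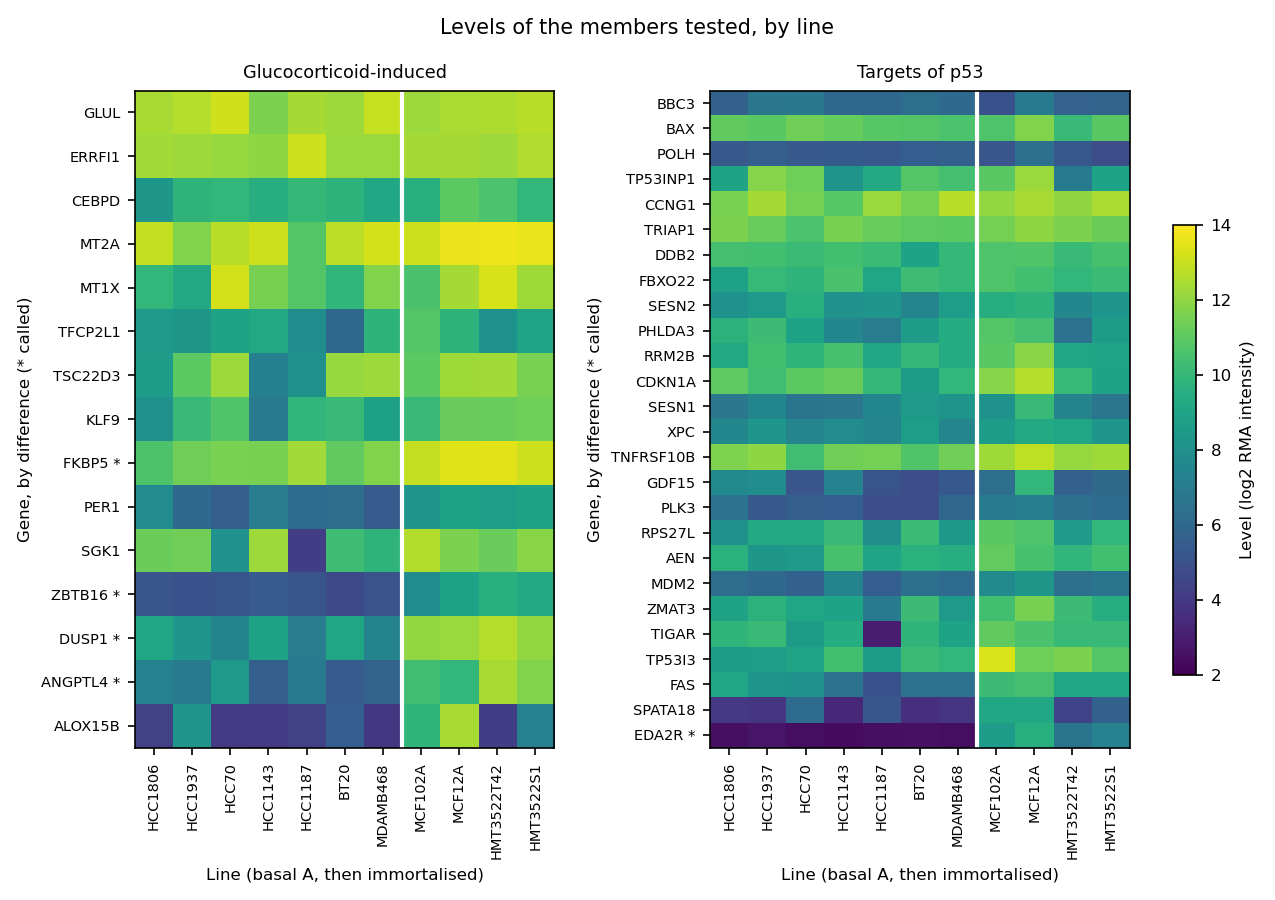
Levels on the log2 RMA scale, shown by colour, of the tested members of the glucocorticoid-induced list (left, 15 genes) and the list of p53 targets (right, 26 genes) in rows, with the 7 basal A lines left of the white line and the 4 immortalised lines right of it, and called genes marked by an asterisk. In the left panel all immortalised lines have a higher mean level than all basal A lines (10.91 or more against 9.56 or less), and in the right panel MCF12A and MCF102A have the highest means, 10.35 and 9.79.

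Inflammatory cytokines and chemokines had a median difference of -2.02 over 17 tested of 22 measured, 12 of them negative and 2 called lower in basal A. CSF3, which stimulates granulocyte production, lay between 4.06 and 4.41 in the basal A lines with a median of 4.23. It was 10.66 in MCF102A, 6.07 in MCF12A, 11.32 in HMT3522T42 and 7.76 in HMT3522S1. The immortalised lines spread over several units but all lay above the basal A lines (-4.52 ± 0.78, SE; adjusted p = 0.0245, limma). CSF3 was below the array medians in all basal A lines and passed the filter through the immortalised units alone. CXCL3, a chemokine that attracts neutrophils, was at 3.88, 5.22 and 6.83 in the basal A lines, against 9.38, 11.13, 9.07 and 8.91 in MCF102A, MCF12A, HMT3522T42 and HMT3522S1 (-4.45 ± 0.73, SE; adjusted p = 0.0228, limma). CSF3 lost the call without BT20, HCC1937, MDAMB468 or MCF102A (adjusted p up to 0.0671, limma), and CXCL3 without MDAMB468 or MCF12A (adjusted p up to 0.111, limma). Without MDAMB468 no member of the list was called.

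Interferon-induced antiviral genes had differences of the opposite sign, with a median of 1.58 over 28 tested, 26 positive and none called. XAF1, a pro-apoptotic interferon target, was at 6.43, 8.99 and 11.07 in the basal A lines, against 3.38 in MCF102A, 2.63 in MCF12A, 7.52 in HMT3522T42 and 3.89 in HMT3522S1 (difference 4.83; adjusted p = 0.0707, limma). HMT3522T42 lay within the basal A range. Genes of antigen presentation were positive in all 16 tested of 19 measured, with a median of 1.07 and none called. HLA-DMA, which loads peptides on class II molecules, was at 7.19, 8.86 and 10.34 in the basal A lines, against 3.96, 6.94, 7.28 and 5.25 in the same order (difference 3.19; adjusted p = 0.107, limma). Over the antigen presentation list the mean level was 9.21 to 10.90 in the basal A lines, and 7.78 in MCF102A, 8.87 in MCF12A, 10.40 in HMT3522T42 and 8.38 in HMT3522S1.

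Growth factor receptors had a median difference of -0.07 over 20 tested of 22 measured, and 1 was called, higher in basal A. DDR1, a collagen receptor kinase of epithelia, was at 11.69, 11.89 and 12.62 in the basal A lines, against 11.07 in MCF102A, 10.35 in MCF12A, 9.79 in HMT3522T42 and 9.996 in HMT3522S1. No basal A line overlapped an immortalised line, and the difference was 1.56 ± 0.27 (SE; adjusted p = 0.0244, limma), lost without BT20, HCC1937 or MCF12A (adjusted p up to 0.117, limma). ERBB3, the HER2 partner, was at 10.78 to 12.08 in the basal A lines and at 10.49 in MCF102A, but at 5.92 in MCF12A, 4.62 in HMT3522T42 and 4.50 in HMT3522S1 (adjusted p = 0.0737, limma). TGFBR2, a receptor of transforming growth factor beta, was at 9.48 to 11.18 in the basal A lines and at 11.36 to 12.14 in the immortalised lines (difference -1.76; adjusted p = 0.0696, limma). EGFR differed by -0.06 (adjusted p = 0.978, limma), with 10.15 to 13.18 in the basal A lines, highest in MDAMB468, and 11.18 to 11.95 in the immortalised lines.

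Of 24 genes of the RB, CDK and tumour suppressor list, CCND2 alone passed the test and the list median was 0.00. Single lines stood far out. RB1, which restrains entry into S phase, was at 1.95 in MDAMB468 and between 8.87 and 10.78 in the other basal A lines, against 10.08 to 10.74 in the immortalised lines. MTAP, a methionine salvage enzyme encoded beside CDKN2A, was at 2.28 in MCF102A, against 8.77 to 11.11 in the basal A lines and 9.73, 10.10 and 10.50 in MCF12A, HMT3522T42 and HMT3522S1. CDKN2A, which encodes the CDK4 inhibitor p16, was at 2.86 in HCC1806 and 3.72 in BT20 and at 10.66 or more in the other basal A lines. It was 4.40 in MCF102A and 3.43 in MCF12A, and 11.16 in HMT3522T42 and 11.35 in HMT3522S1. Low CDKN2A thus occurred on both sides, and neither gene passed the test (adjusted p = 0.443 for MTAP and 0.669 for CDKN2A, limma). Mitosis and replication genes had a median difference of 0.30 over 33 tested, with 29 positive and none called, and the mean level was 10.76 to 11.21 in the basal A lines, against 10.03 in MCF102A, 10.51 in MCF12A, 11.14 in HMT3522T42 and 11.17 in HMT3522S1.

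Cholesterol and fatty acid synthesis gave 1 call among 20 tested, with a median of 0.51. HMGCS1, which makes the precursor of mevalonate, was at 11.73, 12.23 and 12.75 in the basal A lines, against 9.97 in MCF102A, 10.07 in MCF12A, 10.39 in HMT3522T42 and 9.69 in HMT3522S1. Both groups were tight and more than 1 unit apart, with a difference of 2.15 ± 0.21 (SE; adjusted p = 0.00162, limma), and the call was kept with each line left out in turn. DHCR7, the last enzyme of the cholesterol pathway, differed by 1.82 and was not called (adjusted p = 0.239, limma). In the Notch list none of 15 passed the test, and NRARP, a feedback target of Notch, was the closest, at 9.54, 10.91 and 12.22 in the basal A lines against 5.37 in MCF102A, 8.30 in MCF12A, 8.84 in HMT3522T42 and 7.98 in HMT3522S1 (difference 3.50 ± 0.71, SE; adjusted p = 0.0537, limma). NOTCH3 differed by 4.43 and was not called (adjusted p = 0.109, limma). No member was called in the lists of Wnt signalling (22 tested), EGF family ligands (19), NRF2 targets (20), YAP targets (17), integrins and laminins (16), glycolysis and hypoxia (21), homologous recombination (15), plasminogen activation (11) or metallothioneins (5), with list medians between -1.89 and 0.31.

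The HMT3522 lines could be set against calls from a fit that did not use them. The filter on low values did use the HMT3522 mean. A gene below the array medians in all basal A lines was thus tested only if the HMT3522 mean was above its array median. For such genes the counts below lean toward the MCF side by design. With both left out, 28 genes were called between the basal A lines and the 2 MCF lines (limma, adjusted p below 0.05), 14 higher and 14 lower in basal A, or 0.11% of the genes tested in each direction. HMT3522T42 was nearer the mean of the MCF lines than that of the basal A lines in 21 of the 28, and HMT3522S1 in 23 of the 28. The same basal A lines set one end of each measure, so these counts show where the HMT3522 lines lie and not a second test of the basal A values. For EDA2R, KLK5, ID4, CCBE1 and EPCAM both lines were on the MCF side. EDA2R and CCBE1 were below the array medians in all basal A lines, so the filter partly fixed this result for them in advance. In SPATA18 both were nearer the basal A mean, 4.30, at 4.42 in HMT3522T42 and 5.73 in HMT3522S1, against an MCF mean of 9.14. The same held for ACTA2, SAPCD2 and ACBD7, named after their values were seen. ACBD7 was 9.65 on average in the basal A lines and 5.46 in the MCF lines, against 8.92 in HMT3522T42 and 8.60 in HMT3522S1. GCNT2, a glycosyltransferase named after its values were seen, was 10.82 on average in the basal A lines, against 4.74 in the MCF lines, and the HMT3522 lines split, with 8.93 in HMT3522T42 and 5.17 in HMT3522S1.

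HMT3522T42 and HMT3522S1 were the most alike of the lines compared. Across the genes tested their correlation was 0.933, against 0.875 for MCF12A and MCF102A, 0.839 to 0.916 between an MCF and an HMT3522 line, 0.732 to 0.850 between basal A lines and 0.696 to 0.834 across the groups (genes share each array's processing and are not independent). The number of genes at least 2 log2 units apart was 501 for HMT3522T42 and HMT3522S1, 994 for the MCF lines and 1038 to 1957 for pairs of basal A lines. Between an MCF and an HMT3522 line it was 591 to 1244. With 1 array each these differences have no replicate check. Of the 501 genes, 216 were higher in HMT3522T42, 1.7% of those tested, and 285 lower, 2.24%.

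The largest difference of the pair was in MRFAP1L1, a gene of chromosome 4. Its level was 3.32 in HMT3522T42 and 12.10 in HMT3522S1. In the other 57 lines of the series it was never below 11.20, so HMT3522T42 stood alone at a low level. SNX19, a sorting nexin, was at 4.02 in HMT3522T42 and 10.65 in HMT3522S1, GNB4, a G protein subunit, at 3.62 and 10.41, and CTSH, a lysosomal cathepsin, at 3.60 and 9.54 in the same order. Matrix genes went both ways. COL5A1 was at 3.61 in HMT3522T42 and 10.42 in HMT3522S1 and MGP, an inhibitor of calcification, at 4.22 and 10.66, while COL5A2 was at 10.51 in HMT3522T42, 6.51 above HMT3522S1, and COL4A1, a basement membrane collagen, at 12.06 in HMT3522T42 and 5.55 in HMT3522S1. Among the genes higher in HMT3522T42 were 2 of antigen presentation. CD74, the invariant chain of class II molecules, was at 11.92 in HMT3522T42 and 5.65 in HMT3522S1, and HLA-DRA at 8.72 and 2.86. IL1R2, a decoy receptor of interleukin 1, was at 12.10 in HMT3522T42 and 5.33 in HMT3522S1, and the MCF lines were as far apart, with 12.53 in MCF12A and 4.01 in MCF102A. The remaining genes of the 10 largest in each direction were AMPH, NAP1L3, CHI3L1, APOL1 and TSPAN12, higher in HMT3522T42 by 5.35 to 6.57, and KANK4, ZNF287, GAL and NECAB1, lower by 5.99 to 6.48 in size.

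Against the other 54 lines of the series, 13 of 19798 genes had all 3 immortalised units above every other line and 1 had them below. MAOA, a mitochondrial monoamine oxidase, had the largest gap. It was 11.83 in MCF102A, 12.41 in MCF12A, 12.51 in HMT3522T42 and 12.19 in HMT3522S1, against a median of 6.93 and a highest of 10.31 in the other 54 lines. In the basal A lines MAOA ran from 3.44 to 10.22, and its difference between the basal A and immortalised lines was not called (adjusted p = 0.0772, limma). SLC6A15 was 1.43 above the next line and SLC2A9, a urate transporter, 1.41. SLC2A9 was at 9.46 in MCF102A, 8.40 in MCF12A, 7.20 in HMT3522T42 and 9.01 in HMT3522S1, against a highest of 6.70 in the other lines. DUSP1, TTLL11-IT1, IL20RB, AOX1, ABLIM3, LINC01179 and RGS2 followed with gaps of 0.64 or less. These gaps use the HMT3522 mean. Taken alone, HMT3522S1 was below the highest of the other 54 lines for RGS2, 9.87 against 11.02, and for ABLIM3, 11.19 against 11.30. HMT3522T42 was below it for LINC01179, 3.60 against 3.85. LINC01179 also lay below the array median in all immortalised lines. The 1 gene below every other line was ILRUN, an inhibitor of antiviral and inflammatory signalling, with units at 10.93 to 11.31 against 11.34 or more elsewhere.

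Over the 113 called genes, the other 47 lines of the series were placed between the group means, with 0 at the mean of the immortalised units and 1 at that of the basal A lines. Since the calls were made on the 11 lines, only the positions of the 47 are of interest. Their median position ran from 0.04 to 1.04 with a median of 0.94, and 9 lay below 0.5. These were HS605T, HS362T, HS579MG, HS739T, HS578T, M4A4, NM2C5, MDAMB436 and MDAMB435S. Lines of the HS series that lie nearest to 0 are known for fibroblast-like or mesenchymal growth, and MDAMB435S with its derivatives M4A4 and NM2C5 is reported not to come from a breast tumour.

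**Figure D5:**
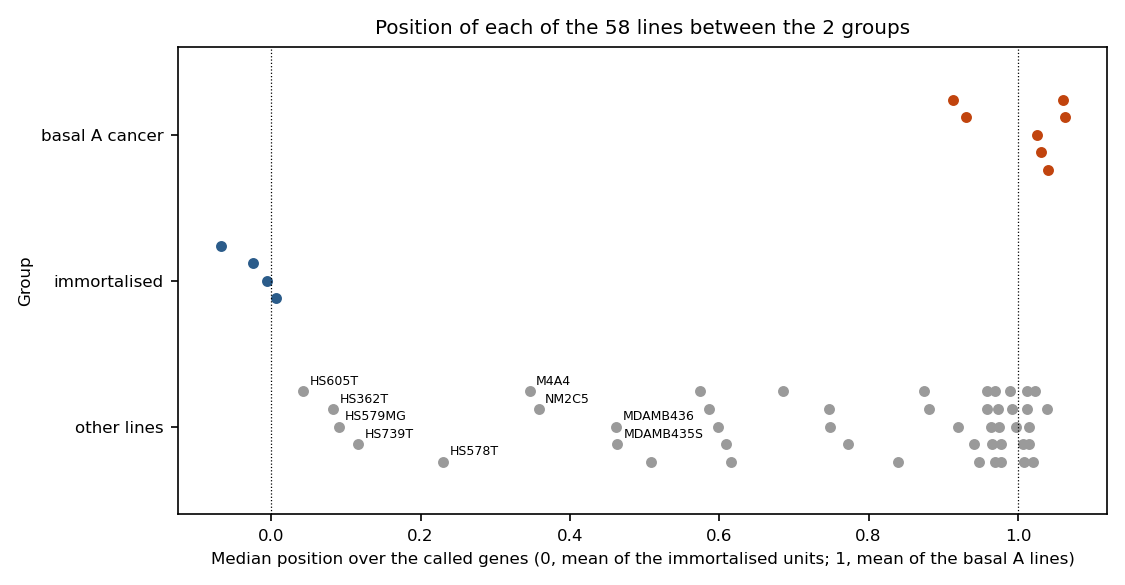
Median position of each of the 58 lines over the 113 called genes (horizontal axis, 0 at the mean of the immortalised units and 1 at the mean of the basal A lines), with basal A lines in the top row, immortalised lines in the middle and the 47 other lines at the bottom, the vertical offset within a row having no meaning. Most other lines lie near 1, and the 9 named lines lie below 0.5.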

How the data were processed

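The deposited table holds log2 RMA intensities of 58 arrays that the authors made with Affymetrix Power Tools, per the submitters' processing notes. The labels give biotin label, NuGEN amplification and processing in plates. Versions and whether the arrays were normalized together are not given in the sources used here. The table spans 1.53 to 14.77 over 52377 probe sets. Of these, 35184 name 1 gene and were used, 374 name several and 16819 none. Each of 19798 genes was represented by its probe set of highest mean, and 8731 genes had more than 1 to choose from. Gene symbols are those of the platform annotation. Probe sequences and their build are not given in the sources used here. Some items are not reported here.

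Lines were grouped by name. The members and gene lists were chosen with earlier results of these data known. A gene was tested if it lay above the array median in at least 3 of the 10 units (7 basal A lines, MCF12A, MCF102A and the HMT3522 mean), and limma 3.58.1 in R 4.3.3 (trend, robust, Benjamini-Hochberg adjusted p below 0.05) compared the groups. The number of arrays limits the precision. Named genes were the markers KRT5, TP63 and MET, the 10 largest called differences each way, up to 4 called members of each list or else the 2 largest differences, receptors and cell cycle genes, the 10 largest differences each way within the HMT3522 pair, up to 10 genes each way beyond every other line, and ESR1, PGR and ERBB2; others are said to be chosen after their values were seen. Alternatives were the mean of probe sets, marked probe sets left out, a second quantile normalization, other filters, eBayes without trend, the pair as a random block or left out, array quality as a covariate, each line left out, and an exact permutation test over 120 assignments for single genes. Of 100 simulated differences of 2 log2 units the comparison of basal A with immortalised units recovered 52, and of 100 of 4 log2 units 79, with 8 unchanged genes of the 12718 called.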

Additional observations from a re-analysis of the deposited data

Results flagged for a closer look

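In 9 of 40 genes examined, 1 basal A line lay far from the other 6, by a criterion that chance meets in about 5% of groups. HCC1143 had the lowest KRT5, 6.04 against 12.39 in the next line, and the highest ZEB1, 7.21 against 3.79. HCC1187 had the lowest MET, 9.53 against 11.21, the lowest CLDN7, 10.86 against 11.999, the lowest TMEM30B, 6.97 against 10.66, and the highest TMTC1, 8.35 against 3.89. HCC1806 had the lowest ELF3, 7.61 against 10.94, and the lowest PADI2, 7.49 against 11.70. HCC1937 had the highest CCND2, 7.09 against 3.41. Apart from KRT5 and MET, which were not called, the named line was in each case the basal A line nearest to the immortalised lines. The immortalised units were too few for this criterion.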

How the results depend on the processing

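The count of 113 calls was 94 with the HMT3522 arrays apart and their origin as a random block (correlation 0.819), and between 105 and 120 under the other probe set, normalization, filter and eBayes settings. It was 28 with both HMT3522 arrays left out, of which 23 are among the 113, and 4 with array quality as a covariate, where 112 of the 113 kept an unadjusted p below 0.05 and 896 genes did in all (1791 in the fit as reported). Leaving out 1 line gave 47 to 215 calls. It kept 34 of the 113 genes called in all 11 such fits, and 16 of the 38 named called genes. Of calls of at least 1 log2 unit, 111 as reported, 28 were left without the HMT3522 arrays, 4 with array quality, and 47 to 207 with 1 line left out. The 28 calls against the MCF lines became 16 with the mean of probe sets, 48 with no filter, 43 with eBayes without trend, 2 with array quality and 16 with the stricter filter, and 15 to 76 with 1 line left out. The 501 genes apart within the HMT3522 pair were 507, 604 and 400 under a second normalization, no filter and the mean of probe sets. List medians moved as well. With no filter they were 2.53 for luminal progenitor, 1.14 for luminal, 3.03 for epithelial adhesion, -1.85 for mesenchymal and -1.37 for cytokine genes. With array quality as a covariate they were 2.31, 1.75, 1.52, -1.90 and -1.01 in the same order. KRT5 and MET kept their sign and stayed uncalled in every setting, with KRT5 from -2.06 to -0.41 and MET from -0.92 to -0.40. With array quality as a covariate the differences of KDR, LAPTM5 and TPM2, all uncalled, turned to 0.80, 1.08 and 0.43. The cause of these changes was not tested, and array quality was partly confounded with group. No single-gene probe set was marked for cross-hybridisation, so leaving such sets out changed nothing. With 3 immortalised units an exact two-sided permutation test cannot go below 0.00833. No paired analysis was possible because the lines of the groups share no pairing and the numbers only name them.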

Other observations

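Zinc finger genes of chromosome 19, a set chosen after values by chromosome were seen, leaned toward basal A. The median difference over 207 such genes tested was 0.90, with 188 positive and 3 called higher in basal A, ZNF569, ZNF611 and ZSCAN18. Over 720 other genes of chromosome 19 the median was 0.18, with 476 positive and 6 called higher. Over 245 zinc finger genes of other chromosomes it was 0.14, with 152 positive and 1 called higher. Of all 12718 genes tested 6385 were positive and 62 were called higher, 0.487%. By chromosome the highest medians were 0.34 on chromosome 6 and 0.31 on chromosome 19, and the lowest was -0.15 on chromosome 12.

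The cancer-testis genes PRAME and MAGEA12 were high in some basal A lines and low in others. PRAME was at 7.95 in HCC1806, 9.87 in HCC70, 11.09 in HCC1143, 11.59 in HCC1187 and 9.14 in BT20, and at 3.78 in HCC1937 and 3.61 in MDAMB468, against 4.08 in MCF102A, 3.99 in MCF12A, 4.42 in HMT3522T42 and 4.29 in HMT3522S1. MAGEA12 was at 11.02 in HCC1806, 11.07 in BT20 and 11.64 in MDAMB468 and at 4.35 or less in the other basal A lines, against 2.88 to 3.56 in the immortalised lines. Neither gene was called (adjusted p = 0.341 and 0.515, limma).

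GSTP1, a glutathione transferase, was at 4.48 in HCC1937 and 4.74 in BT20 and at 12.43 or more in the other basal A lines, against 13.34 to 13.75 in the immortalised lines. LDHB, a lactate dehydrogenase subunit, was at 3.50 in BT20 and 8.65 in HCC70 and at 11.40 or more in the other basal A lines, against 12.91 to 13.25 in the immortalised lines. Both low levels occurred on the basal A side.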
